A study of Mus musculus with 17 samples.

Results

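Dppa2, Dppa3, Dppa4 and Dppa5a are developmental pluripotency-associated genes, and their RNA levels were followed here through 17 mouse RNA-seq samples. These 4 genes were taken by symbol from the 23891 gene symbols in the files. Where a symbol had several RefSeq transcripts, the one with the highest mean level over the 17 samples stands for the gene. Only Dppa4 had a second transcript.

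The samples were 4 lines of spermatogonial stem cells (SSCs), 6 lines of multipotent adult spermatogonial-derived stem cells (MASCs), 2 embryonic stem cell (ESC) lines, 2 induced pluripotent stem (iPS) cell lines, 2 haematopoietic stem and progenitor cell (HSC) cultures and 1 sample of mouse embryonic fibroblasts (MEFs). MASCs arise when cultured SSCs convert spontaneously, and were picked as colonies that looked like ESCs. By strain label, SSC.1, SSC.2, MASC.1, MASC.2 and ESC.1 were Oct4-GFP, and SSC.4, MASC.3, MASC.4, ESC.2, both iPS lines and the MEF sample were 129mix. SSC.3 and both HSC cultures were C57Bl/6J, and MASC.5 and MASC.6 were Gt(ROSA26)Sor-lacZ. SSCs were expanded on MEF feeders with GDNF, bFGF and EGF, and were plated on gelatin before harvest to take away feeder cells. MASCs, ESCs and iPS cells shared a LIF medium on MEF feeders, so culture medium and cell type cannot be told apart between SSCs and these cells. The iPS lines came from embryonic fibroblasts that carried tetO-4F2A, a doxycycline-inducible cassette of 4 reprogramming factors, with the H3.3B-HA allele, and the MEF sample carried H3.3B-HA too. HSC cultures were Lin- bone marrow cells kept on E4ORF1 endothelial feeder cells. No source states that lines of a cell type came from separate animals, so the p-values below measure the spread between these lines only.

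As background, DPPA2 and DPPA4 are partner proteins with a SAP domain that bind chromatin in pluripotent cells and germ cells. They are known to switch on Dux and, through it, genes of the 2-cell embryo such as the Zscan4 cluster. DPPA3, also called Stella or PGC7, marks primordial germ cells and oocytes and shields DNA methylation from TET3 in the zygote, and it binds UHRF1, the cofactor that maintenance methylation by DNMT1 needs. DPPA5A, also called ESG1, is an RNA-binding protein with a KH domain that is abundant in ESCs, and it belongs to a gene family with Ooep and Khdc3, which are expressed in oocytes.

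On mm9, the build of the files, Dppa4 lies at chr16:48283848-48294405 and Dppa2 at chr16:48310387-48319626, so that their lower ends are 26.5 kb apart. Dppa3 lies at chr6:122576442-122580289 and Dppa5a at chr9:78214861-78216006. The transcripts that stand for them measure 1941 bases for Dppa2, 818 for Dppa3, 1534 for Dppa4 and 639 for Dppa5a. RefSeq on GRCm38 also names the pseudogenes Dppa5b, Dppa5c and Dppa3-ps. The authors dropped reads that map to several places, so Dppa5a and Dppa3 can lose reads to these copies and their levels are uncertain to that extent. The remaining Dppa symbol in the files, Dppa1, was at 0.0431 FPKM or less in every sample.

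Levels are given as FPKM, the number of sequenced fragments relative to transcript length and library size, which the authors scaled to the upper quartile of each library and corrected for GC content. Differences are given between means of log2(FPKM + 1), a scale that understates the change of genes near 0. Each sample had between 13532 and 16272 transcripts at 1 FPKM or more, and 1 FPKM stood for between 1.26 and 3.23 reads per base by Cufflinks coverage. The labelled cell types were checked against their markers. All SSC lines expressed the spermatogonial genes Zbtb16 (32.2 to 80.3 FPKM), Ret (21.1 to 78.9 FPKM) and Nanos2 (6.13 to 14.8 FPKM), with Dazl at 202 to 405 FPKM. Of the 12 genes in that list Lhx1 was lowest in SSCs, at 0.306 to 4.23 FPKM. Etv5, Lin28a and Sall4 did not set SSCs apart from MASCs. They were at 11.4 to 123, 36.9 to 190 and 22.0 to 63.1 FPKM in SSCs. In MASCs they were at 81.1 to 128, 76.4 to 119 and 47.4 to 68.0 FPKM. In the SSC lines the pluripotency factor Nanog did not exceed 0.0435 FPKM, and Fgf4, which encodes a growth factor of pluripotent cells, did not exceed 0.101 FPKM. Other pluripotency genes were detected in SSCs, among them Utf1 at 4.22 to 15.5 FPKM and Esrrb at 1.22 to 6.82 FPKM. A list of 10 core pluripotency genes summed to 27.3 to 131 FPKM in SSCs and 1915 to 2214 FPKM in MASCs. SSC.1 stood apart in Pou5f1, the gene of OCT4, with 94.5 FPKM against 1.37 to 5.42 FPKM in the other SSC lines. A summed level of 10 fibroblast genes ranged from 5.33 to 759 FPKM in SSCs and from 16.8 to 882 FPKM in MASCs. Of these lines MASC.1, SSC.3 and SSC.1 were highest, against 5314 FPKM in the MEF sample. The sum was 331 FPKM in ESC.1, 60.3 FPKM in ESC.2, 6.82 FPKM in HSC.1 and 359 FPKM in HSC.2. In iPS.1 and iPS.2 it was 2.71 and 31.5 FPKM. The Dppa genes themselves did not exceed 0.405 FPKM in MEFs. Summed blood cell genes reached 613 and 826 FPKM in the HSC cultures and at most 14.0 FPKM in the SSC, MASC, ESC and iPS lines, and summed meiotic and spermatid genes ranged from 45.0 to 113 FPKM in SSCs and from 9.47 to 17.8 FPKM in MASCs. Testis somatic genes summed to 23.6 to 32.1 FPKM in SSCs and 18.2 to 89.7 FPKM in MASCs. Acta2 made up 79.5 FPKM of the sum in MASC.1, and was at 1148 FPKM in the MEF sample. Wt1 went the other way, at 8.17 to 20.9 FPKM in SSCs and 0.797 to 4.41 FPKM in MASCs. Of the 7 genes, 3 had a MASC minus SSC difference above 0 and 4 below 0. In the test described below, 1 of 8 meiotic and spermatid genes was called lower in MASCs than in SSCs. Of 7 testis somatic genes 1 was called higher and 1 lower, and 0 of 10 fibroblast and 0 of 6 blood genes in either direction. Over all transcripts 1.73% were called higher and 2.13% lower. Every SSC and MASC line was under 3 FPKM for 6 meiotic and spermatid, 2 testis somatic, 1 fibroblast and 4 blood genes. For these a difference of 2 could not be reached, so the absence of a call carries no information.

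All 4 genes were higher in MASCs than in SSCs, and for each of them the lowest MASC line exceeded the highest SSC line. Dppa5a, the KH-domain gene, showed the largest difference of the 4 and Dppa4 the smallest. In bulk RNA such as this, fewer expressing cells and less RNA per cell cannot be told apart.

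Dppa5a was at 41.8 FPKM in SSC.1, 36.7 FPKM in SSC.2, 24.6 FPKM in SSC.3 and 5.36 FPKM in SSC.4. The 6 MASC lines ranged from 1215 to 2840 FPKM with a median of 2045 FPKM. This placed Dppa5a between rank 13 and rank 91 of all transcripts in the MASC lines, and between rank 2183 and rank 10302 in the SSC lines. ESC.1 and ESC.2 had 2164 and 2297 FPKM, and iPS.1 and iPS.2 had 3504 and 2609 FPKM. HSC.1 had 2.64 FPKM, HSC.2 had 0.0880 FPKM and the MEF sample 0.405 FPKM. Dppa5a was thus present in SSCs at a level between that of blood progenitors and that of pluripotent cells, with SSC.4 nearest to HSC.1. By order of the mean, iPS cells came before ESCs, MASCs, SSCs, HSCs and MEFs. The ranges of ESCs and MASCs overlapped, as did those of HSCs and MEFs.

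Dppa4 was at 17.4 FPKM in SSC.1, 14.4 FPKM in SSC.2, 20.5 FPKM in SSC.3 and 6.56 FPKM in SSC.4. In MASCs it ranged from 64.0 to 112 FPKM with a median of 106 FPKM. MASCs and SSCs did not overlap, and SSC.4 was again the lowest line. ESC.1 and ESC.2 had 94.2 and 104 FPKM, and iPS.1 and iPS.2 had 115 and 93.7 FPKM. HSC.1 was at 0.192 FPKM, HSC.2 at 0.0434 FPKM and the MEF sample under both of them. Among iPS cells, ESCs and MASCs the ranges overlapped, and SSCs lay between this cluster and the blood cells.

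Dppa2, which encodes the partner of DPPA4, was low in SSCs, at 1.82 FPKM in SSC.1, 3.90 FPKM in SSC.2, 2.29 FPKM in SSC.3 and 2.57 FPKM in SSC.4. In MASCs it ranged from 38.4 to 90.4 FPKM with a median of 76.3 FPKM. SSC.4 did not stand low here, unlike for Dppa4 and Dppa5a. ESC.1 and ESC.2 had 56.6 and 86.7 FPKM, and iPS.1 and iPS.2 had 51.7 and 63.9 FPKM. Both HSC cultures were near 0, at 0.0879 and 0.0875 FPKM, as was the MEF sample at 0.0346 FPKM. The ranges of ESCs, MASCs and iPS cells overlapped, and each was apart from SSCs.

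Dppa3, the primordial germ cell gene, differed most among the SSC lines. It was at 9.46 FPKM in SSC.1, 0.688 FPKM in SSC.2, 1.05 FPKM in SSC.3 and 0.0767 FPKM in SSC.4, where the lower confidence bound in the file was 0. MASCs ranged from 20.5 to 73.7 FPKM with a median of 34.6 FPKM. ESC.1 had 63.8 FPKM and ESC.2 had 16.5 FPKM, so the 2 ESC lines were 3.87-fold apart, against 3.59-fold between the extremes of the MASC lines. Both iPS lines, at 81.8 and 91.4 FPKM, were above every MASC line. Dppa3 was listed at 0 in HSC.2 and in MEFs, and at 0.198 FPKM in HSC.1, within the range of the SSC lines. SSC.1, the high line, is also the line with the high Pou5f1 level given above. The part of that in the Dppa3 value was not tested.

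**Figure D1:**
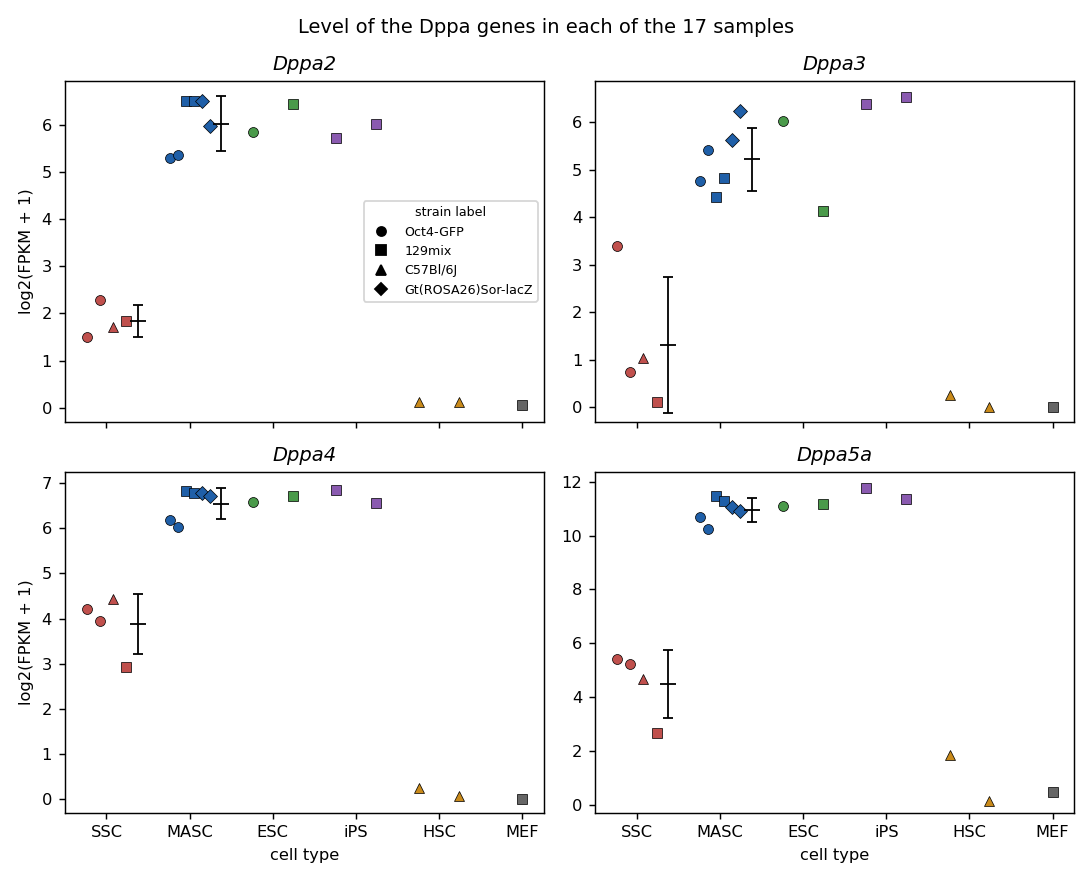
Level of Dppa2, Dppa3, Dppa4 and Dppa5a as log2(FPKM + 1) (vertical axis) by cell type (horizontal axis), with 1 point per sample, colour by cell type and shape by strain label. Horizontal marks with bars are the mean and SD of the 4 SSC and 6 MASC lines, and in each panel all MASC points lie above all SSC points.

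The test across all 32661 transcripts used limma on log2(FPKM + 1) over the 12 SSC, MASC and ESC lines. A transcript was called when the difference was at least 2 and the Benjamini-Hochberg adjusted p was under 0.05. All 4 Dppa genes were called higher in MASCs than in SSCs, against 1.73% of all transcripts called in that direction. No overlap between the lines, with MASCs above, was seen for 9.91% of all transcripts. The median difference was 4.04 over the 4 genes and -0.0048 over all transcripts. Dppa5a differed by 6.45 (SE 0.50, limma adjusted p = 1.3e-05) and Dppa2 by 4.19 (SE 0.31, limma adjusted p = 9.71e-06). Dppa3 differed by 3.89 (SE 0.66, limma adjusted p = 0.00158) and Dppa4 by 2.67 (SE 0.29, limma adjusted p = 0.000108). A two-sided exact permutation test over the 4 SSC and 6 MASC lines gave p = 0.00476 for each gene, the smallest that the 210 assignments allow. Without SSC.1, SSC.3 and MASC.1, the SSC and MASC lines with the highest fibroblast sums, the differences were 4.11 for Dppa2, 4.88 for Dppa3, 3.19 for Dppa4 and 7.05 for Dppa5a, all called. These lines were left out after the data had been seen. With the strain label as a block in the fit, the differences were 3.93 for Dppa2, 3.65 for Dppa3, 2.76 for Dppa4 and 6.55 for Dppa5a, again all called.

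The comparison of ESCs with SSCs shares the SSC lines with the one above. Its differences were 4.32 for Dppa2, 3.75 for Dppa3, 2.77 for Dppa4 and 6.62 for Dppa5a. All 4 were called higher in ESCs, against 1.73% of all transcripts, and no ESC line overlapped the SSC lines for any of them (14.4% of all transcripts). For Dppa3 this rested on ESC.1. Without that line the difference was 2.81 with a limma adjusted p of 0.143. In the fit over all 17 samples, the iPS lines exceeded SSCs by 4.04 for Dppa2, 5.13 for Dppa3, 2.84 for Dppa4 and 7.06 for Dppa5a. All 4 were called, against 2.09% of all transcripts, and none overlapped (16.5% of all transcripts).

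Between MASCs and ESCs none of the 4 genes was called, against 0.0153% of all transcripts called in either direction. The difference, MASC minus ESC, was -0.12 for Dppa2 (95% interval -1.0 to 0.76) and -0.10 for Dppa4 (-0.93 to 0.73). It was 0.14 for Dppa3 (-1.74 to 2.03) and -0.17 for Dppa5a (-1.59 to 1.25). With 2 ESC lines the intervals are wide, and for Dppa3 they leave room for a difference past the threshold.

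Between MASCs and iPS cells again none of the 4 was called, against 0.0796% of all transcripts in either direction. The difference, MASC minus iPS, was 0.16 for Dppa2 (95% interval -0.63 to 0.95), -0.16 for Dppa4 (-0.91 to 0.58) and -0.61 for Dppa5a (-2.03 to 0.81). For Dppa3 it was -1.24 (-2.91 to 0.44), and Dppa3 was the gene for which every MASC line lay below both iPS lines, as was the case for 9.34% of all transcripts. That difference had a limma adjusted p of 0.624. With the strain label as a block it was -2.22 (limma adjusted p = 0.185), where both iPS lines are 129mix, and it was again not called.

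Against HSCs, SSCs had more Dppa4, by 3.72 (SE 0.36), and more Dppa5a, by 3.51 (SE 0.69), both called, against 5.08% of all transcripts called in that direction. Dppa2 differed by 1.71 with a limma adjusted p of 0.00412, short of the threshold of 2 on this scale. With a pseudocount of 0.1 in place of 1 that difference was 3.82 and was called. Dppa3 differed by 1.19 (95% interval -0.58 to 2.97). All SSC lines lay above both HSC cultures for Dppa2, Dppa4 and Dppa5a, that is for 3 of the 4 genes against 27.1% of all transcripts, and for Dppa3 the ranges overlapped.

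**Figure D2:**
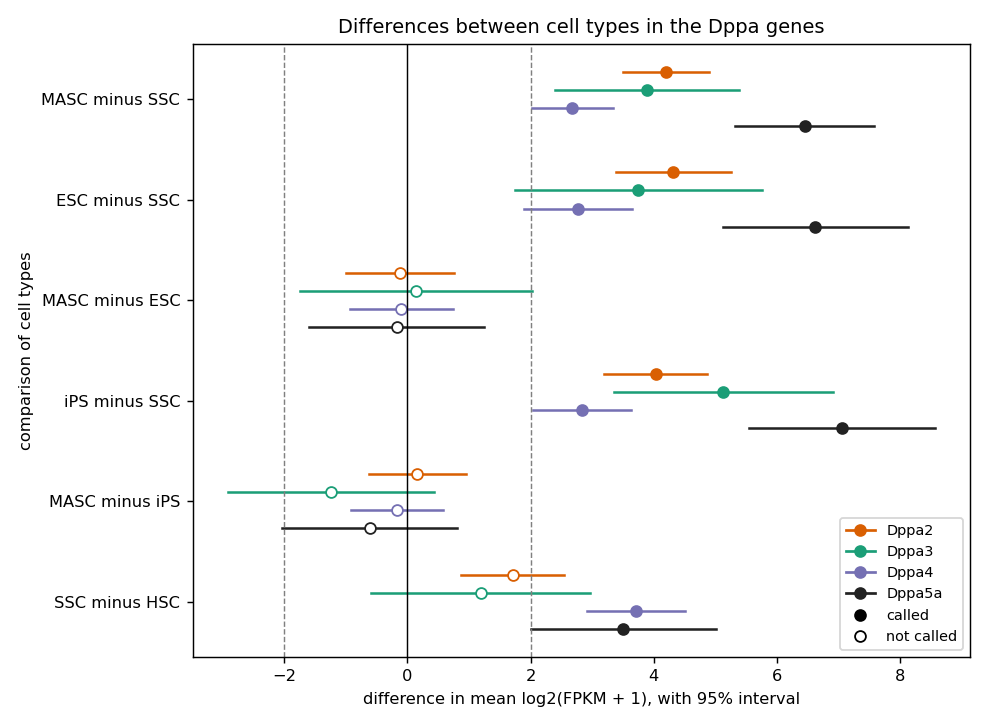
Difference in mean log2(FPKM + 1) (horizontal axis) for the 4 genes in each of the 6 comparisons (vertical axis), with the 95% limma interval as a line and the threshold of 2 as dashed lines. Filled points were called and open points were not, and the 3 comparisons of pluripotent or MASC lines with SSCs hold all 4 genes to the right of the threshold.

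The spread of the 4 genes among SSC lines was compared with that among MASC lines. Dppa3, Dppa4 and Dppa5a varied more among SSCs, and Dppa2 varied more among MASCs, but none of these contrasts passed its test. The highest SSC line exceeded the lowest 2.15-fold for Dppa2, 123-fold for Dppa3, 3.13-fold for Dppa4 and 7.80-fold for Dppa5a in FPKM. Among MASC lines the same figures were 2.36-fold for Dppa2, 3.59-fold for Dppa3, 1.75-fold for Dppa4 and 2.34-fold for Dppa5a. The Dppa3 figure in SSCs has the value of SSC.4, which is near 0, as its lower term.

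On the log2(FPKM + 1) scale, the SD of Dppa5a was 1.26 in SSCs and 0.437 in MASCs, a ratio of 2.88. For Dppa3 the SDs were 1.43 and 0.663, a ratio of 2.16, and for Dppa4 they were 0.667 and 0.352, a ratio of 1.89. Dppa2 went the other way, with SDs of 0.337 and 0.580 and a ratio of 0.581. This Dppa2 ratio depended on the scale. It was 0.756 with a pseudocount of 0.1, and 0.922 when coefficients of variation of FPKM were compared. A ratio above 1 held for 64.8% of the 16670 transcripts with a mean of at least 1 FPKM over the 10 lines, and a ratio of 2 or more for 26.9%. The median ratio over these transcripts was 1.30, so 3 of 4 genes above 1 is close to the share over all of them.

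Deviations from the median of the cell type were compared by a two-sided exact permutation test over the 4 SSC and 6 MASC lines. This exact permutation test gave p = 0.262 for Dppa5a, p = 0.481 for Dppa4, p = 0.600 for Dppa3 and p = 0.295 for Dppa2. Over the 16670 transcripts, 13.5% were more variable in SSCs at an unadjusted exact permutation p under 0.05, and 2526 transcripts reached that p in either direction. After Benjamini-Hochberg adjustment 0 passed, where 0.00476 is the smallest p that the 210 assignments can give a transcript.

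Leaving out a single line turned the ratio below 1 for 3 of the 4 genes. Dppa3 without SSC.1 had a ratio of 0.72 in place of 2.16, and without SSC.4 the ratio was 0.684 for Dppa4 and 0.878 for Dppa5a. All Dppa4 ratios cover only the transcript that stands for it, and the spread of both Dppa4 transcripts together was not tested. The ratio of Dppa2 stayed below 1 whichever line was left out, and without SSC.2 it was 0.299. Without the Oct4-GFP lines, an alternative chosen after seeing the data that leaves 2 SSC and 4 MASC lines, the ratio was 0.327 for Dppa2, 0.819 for Dppa3, 22.6 for Dppa4 and 5.92 for Dppa5a. The exact permutation p was 0.0667 for both Dppa4 and Dppa5a, the smallest possible with these lines. SSC.4 was the only SSC line labelled 129mix. Within MASCs, the Oct4-GFP lines MASC.1 and MASC.2 were the lowest 2 for Dppa2, Dppa4 and Dppa5a. The share of all transcripts that separate these lines in this way was not computed. That count is therefore not read as particular to the Dppa genes. The mean of MASC.1 and MASC.2 was lower than that of the other 4 MASC lines by 1.05 for Dppa2, 0.67 for Dppa4 and 0.72 for Dppa5a on the log2 scale. The two-sided exact permutation p was 0.0667 for each, the smallest that 2 lines against 4 allow, and for Dppa3 the difference was -0.18 with an exact permutation p of 0.733. These lines also had the 2 highest fibroblast sums of the MASC lines, at 882 FPKM in MASC.1 and 101 FPKM in MASC.2 against 16.8 to 50.0 FPKM in the other 4. MASC.2 had the lowest coverage of the MASC lines, at 1.54 reads per base for 1 FPKM against 2.13 to 2.78 in the others. The part of either in the lower Dppa levels was not tested.

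**Figure D3:**
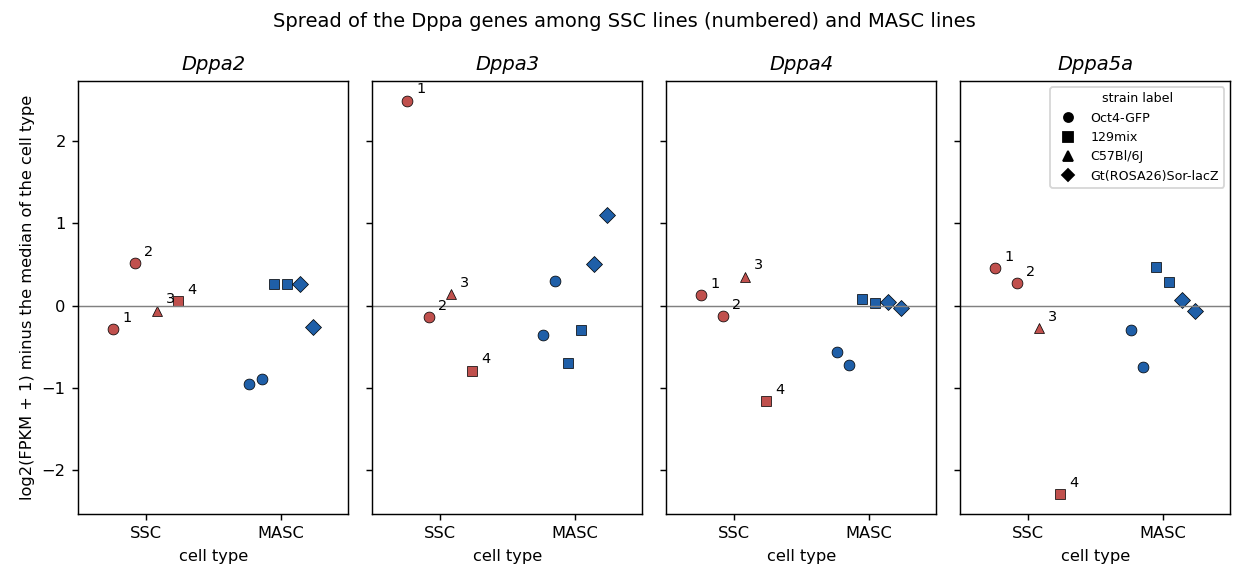
Deviation of each line from the median of its cell type in log2(FPKM + 1) (vertical axis) for the 4 SSC lines, which are numbered, and the 6 MASC lines (horizontal axis), with shape by strain label. SSC.1 lies far above the other SSC lines for Dppa3, and SSC.4 lies far below them for Dppa5a and Dppa4, while Dppa2 has its low points in the 2 Oct4-GFP MASC lines.

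The proportions among the genes differed between SSCs and MASCs, which restates that the level differences given above were unequal. Dppa5a exceeded Dppa4 between 18.8-fold and 25.4-fold in the MASC lines. In SSCs the Dppa5a to Dppa4 ratio of FPKM was 2.40 in SSC.1, 2.54 in SSC.2, 1.2 in SSC.3 and 0.817 in SSC.4. Both ESC lines, at 23.0 and 22.1, were within the range of MASCs, and both iPS lines, at 30.5 and 27.8, were above it. Dppa4 exceeded Dppa2 1.86-fold or less in MASCs. In SSCs the Dppa4 to Dppa2 ratio was 9.59 in SSC.1, 3.69 in SSC.2, 8.98 in SSC.3 and 2.55 in SSC.4, so the partner genes were nearer to each other in MASCs than in any SSC line.

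All 6 pairs were tested as the difference between MASCs and SSCs in the mean log2 ratio of (FPKM + 1) within a line. In 4 of them the ratio differed with a two-sided exact permutation p of 0.00476, the smallest possible, or 0.00714 after Benjamini-Hochberg adjustment over the 6 pairs. Each contrast equals the gap between the level differences of its 2 genes, and the pairs share genes. These calls are thus not independent of the level results or of each other. The share over pairs of other genes was not computed. The ratio of Dppa4 to Dppa5a was lower in MASCs, by a log2 difference of -3.78, as were those of Dppa3 to Dppa5a (-2.56) and of Dppa2 to Dppa5a (-2.25). In plain FPKM, the Dppa5a to Dppa2 ratio was 23.0 in SSC.1, 9.39 in SSC.2, 10.8 in SSC.3 and 2.09 in SSC.4. In MASCs that FPKM ratio was 23.8 to 43.3, so SSC.1 was close to the lowest MASC line. The ratio of Dppa2 to Dppa4 was higher in MASCs by 1.52. That of Dppa3 to Dppa4 differed by 1.22 (exact permutation p = 0.081) and that of Dppa2 to Dppa3 by 0.30 (exact permutation p = 0.752). With a pseudocount of 0.1, Dppa3 to Dppa5a lost its call (-1.51, exact permutation p = 0.0762), and Dppa3 to Dppa4 differed by 2.26 (exact permutation p = 0.0333, or 0.05 after adjustment over the pairs). Without SSC.1, Dppa3 to Dppa4 gained a call (1.80, exact permutation p = 0.0119, the smallest possible, or 0.0179 after adjustment).

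Dppa4 has a second RefSeq transcript of 1378 bases over the same locus. Its share of the FPKM of both transcripts was 30.2% in SSC.1, 12.5% in SSC.2, 50.6% in SSC.3 and 18.4% in SSC.4. In MASCs the share ranged from 8.45% to 21.1% with a median of 10.6%, and the Oct4-GFP lines had the 2 highest values. ESC.1 and ESC.2 had 12.4% and 8.16%, and iPS.1 and iPS.2 had 6.32% and 9.04%. SSCs and MASCs overlapped in this share. Summing both transcripts, an alternative chosen after seeing the data, gave a MASC minus SSC difference of 2.39 for Dppa4 (limma adjusted p = 0.000805). The sum was 25.0 FPKM in SSC.1, 16.5 FPKM in SSC.2, 41.5 FPKM in SSC.3 and 8.04 FPKM in SSC.4. In MASCs it ranged from 81.1 to 125 FPKM. Among SSCs the sum ranged more widely than the longer transcript alone, and the spread of the sum was not tested.

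**Figure D4:**
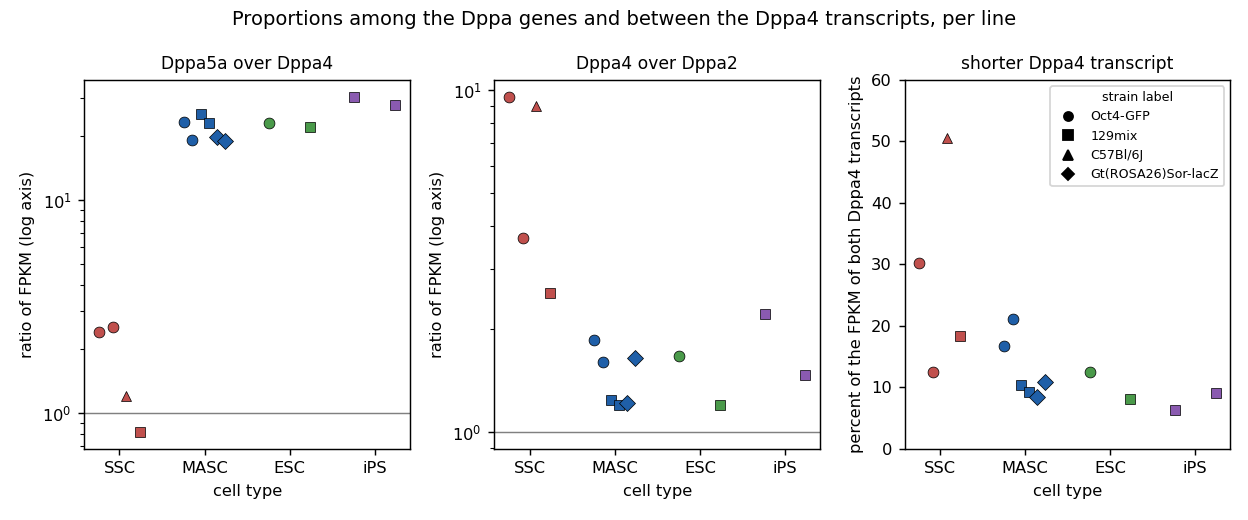
Ratio of FPKM of Dppa5a over Dppa4 and of Dppa4 over Dppa2 on log axes, and the share of the shorter Dppa4 transcript in percent (vertical axes), per line of SSCs, MASCs, ESCs and iPS cells (horizontal axes), with shape by strain label. The SSC lines lie apart from all others in both ratios, but narrowly for Dppa4 over Dppa2, where SSC.4 is at 2.55 and iPS.1 at 2.22. SSC.3 has the highest share of the shorter transcript.

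Of 19 other genes that stand near the Dppa genes, with a lower end within 150 kb, 3 were called higher in MASCs than in SSCs and none lower, against 1.73% and 2.13% of all transcripts. The difference was above 0 for 12 of the 19 and below 0 for 6. In 8 of them every SSC and MASC line was under 3 FPKM, from where the threshold of 2 cannot be reached. Ooep, which encodes an oocyte KH-domain protein 9.85 kb from Dppa5a, had a mean of 0.809 FPKM in SSCs and 32.6 FPKM in MASCs (difference 4.32, limma adjusted p = 3.38e-06). Next to Dppa3 lie Gdf3, a TGF-beta family ligand, with means of 0.530 and 30.7 FPKM, and Nanog, with 0.0109 and 67.1 FPKM. Their differences were 4.37 and 6.03 (limma adjusted p = 2.85e-09 and 4.19e-08). Morc1, a germ cell gene beyond Dppa2, had a difference of 2.01 with a limma adjusted p of 0.159. On the far side of Ooep, the germ cell helicase gene Ddx43 had means of 14.2 FPKM in SSCs and 3.27 FPKM in MASCs, a difference of -1.87 that was short of the threshold. Mb21d1, which encodes the DNA sensor cGAS and lies 63.5 kb from Dppa5a, was also lower in MASCs (difference -1.78, limma adjusted p = 0.000244), again short of the threshold. Some neighbours of Dppa5a were close to 0 in all cell types, among them Omt2a, Omt2b and Gsta2, the last at most at 0.258 FPKM in the mean of a cell type.

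**Figure D5:**
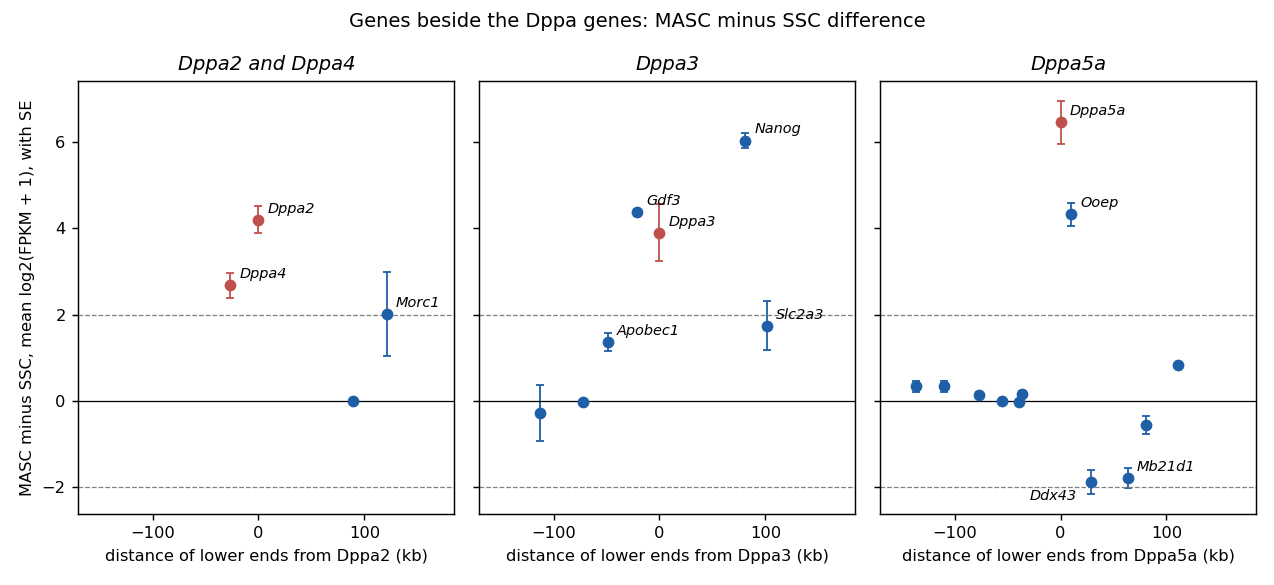
Difference MASC minus SSC in mean log2(FPKM + 1) with its SE (vertical axis) for the Dppa genes (red) and the genes around them (blue), by the distance between lower ends in kb (horizontal axis), with the threshold of 2 as dashed lines. Gdf3 and Nanog beside Dppa3 and Ooep beside Dppa5a lie above the threshold, and no gene lies below -2.

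Genes with the most similar pattern were ranked by Pearson's r of log2(FPKM + 1) over the 17 samples, among 15282 gene symbols. The samples of a cell type share their culture and the points form clusters, so r is given as a description. For Dppa5a the first was Esrrb, a nuclear receptor of the pluripotency network (r = 0.992), then 2410003L11Rik (0.989) and Pigp (0.987). Esrrb also differed between MASCs and SSCs, by 4.20 (limma adjusted p = 1.08e-05). For Dppa4 the list was led by Nufip1 (0.988), Alg13 (0.988) and Bex1 (0.984), and for Dppa2 by Hspd1, a mitochondrial chaperonin gene (0.987), Gpa33 (0.984) and Gm6083 (0.983). Dppa3 was followed less closely, by Mta3 (0.969), Sox15 (0.969) and Eif4b (0.967). Among the 4 Dppa genes, r was 0.980 between Dppa2 and Dppa5a, 0.970 between Dppa4 and Dppa5a, 0.947 between Dppa2 and Dppa4 and 0.943 between Dppa3 and Dppa5a. It was lowest for Dppa3 with Dppa2 (0.905) and with Dppa4 (0.891).

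Genes of the 2-cell embryo known to act after Dppa2 and Dppa4 were described from a list of 16, of which 13 were in the files. Only Gm5662 was called higher in MASCs than in SSCs, with a difference of 2.06 (SE 0.61, limma adjusted p = 0.0284), against 1.73% of all transcripts. Tcstv1 and Tcstv3 were listed at 0 in every sample, and in 7 of the 13 genes, these included, every SSC and MASC line was under 3 FPKM, so that a difference of 2 could not be reached. The median difference over the 13, at 0.51, is low in part through these genes. The difference was above 0 for 11 of the 13 and below 0 for none. Dux, the transcription factor gene through which Zscan4 genes are activated, was at most at 0.110 FPKM in SSCs and between 0.104 and 7.65 FPKM in MASCs. Zscan4f was between 0.111 and 0.203 FPKM in SSCs and between 1.85 and 101 FPKM in MASCs, with a difference of 2.84 and a limma adjusted p of 0.0507. Zscan4c, Zscan4d and Zscan4f are near-identical copies, so their single values are uncertain after the removal of reads with several matches. The summed level of the list was 0.443 to 0.847 FPKM in SSCs and 7.32 to 282 FPKM in MASCs, and 15.9 to 79.3 FPKM in the ESC and iPS lines. MASC.2 held the highest sum, and it is among the 2 MASC lines with the lowest Dppa2 and Dppa4.

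DNA methylation is the process that Dppa3 is known to act on. Among 9 genes that set, maintain or oxidize it, 4 were called higher in MASCs than in SSCs and none lower. Over all transcripts 1.73% were called higher and 2.13% lower. Dnmt3l, a cofactor of de novo methylation, differed by 6.82, the dioxygenase gene Tet1 by 4.32, the de novo methyltransferase gene Dnmt3b by 4.02 and Tet2 by 2.74. Uhrf1, the binding partner of DPPA3, differed by 0.98 with a limma adjusted p of 0.058. Tet3, whose protein acts in the zygote, was lower in MASCs (difference -1.85, limma adjusted p = 4.87e-07), short of the threshold. The median over these 9 genes was 0.98.

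Of 5 KH-domain relatives of Dppa5a, 2 were called higher in MASCs than in SSCs, namely Ooep and Khdc3, against 1.73% of all transcripts. Khdc3 had at most 0.0525 FPKM in SSCs and 2.21 to 9.97 FPKM in MASCs (difference 2.60, limma adjusted p = 0.000623). Khdc1a, Khdc1b and Khdc1c were under 1 FPKM in every sample, and the median difference of the 5 was -0.05. Between MASCs and iPS cells 1 of the 5 was called, lower in MASCs, with a difference of -2.35, against 0.0796% of all transcripts called in either direction.

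Of 10 core pluripotency genes, 9 were called higher in MASCs than in SSCs, against 1.73% of all transcripts, with a median difference of 5.56, and Tfcp2l1 (1.84) was short of the threshold. Tdgf1, which encodes a coreceptor of Nodal, differed by 8.15 and Zfp42, also called Rex1, by 2.61. Dppa5a, at 6.45, was above that median and Dppa2, Dppa3 and Dppa4 were below it. Of 12 spermatogonial genes 8 were called lower in MASCs and none higher, against 2.13% of all transcripts called lower, with a median difference of -2.59. Differences above 0 were those of Etv5 (1.72), Sall4 (0.47) and Lin28a (0.33), none of them called. Of 9 primordial germ cell genes 4 were called lower and 1 higher, against 2.13% and 1.73% of all transcripts, with a median of -1.30. Dppa3 is itself a primordial germ cell gene, and its difference was opposite in sign to those of Dazl (-5.88), Nanos3 (-4.46), Ddx4 (-2.76) and Dnd1 (-2.60), all called, and to that of Kit (-1.30), which was not. The other 4 shared its sign. Ifitm3 (3.42) was called, and Prdm14 (1.99), Tfap2c (1.53) and Prdm1 (0.48) were not.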

How the data were processed

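Total RNA of 17 samples was sequenced from Illumina TruSeq libraries, and 1 table of RefSeq transcripts per sample was used. The authors aligned reads to mm9 with TopHat2 2.0.11 (version from the submitters' processing notes), excluded duplicate reads and reads with several matches, and deposited the FPKM that Cufflinks estimated with upper-quartile and GC normalization. The coverage of each transcript, in reads per base, was deposited beside it by the authors, with confidence bounds of the FPKM. No counts were given, so no count model was used and read depth is known only through coverage.

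Of 33262 rows per file, 601 further loci were left out, and 32661 transcripts were used as log2(FPKM + 1), without a filter. Groups, strains and line numbers follow the labels. Linear models were fitted in limma 3.58.1 (R 4.3.3) with lmFit and an untrended eBayes over the 12 SSC, MASC and ESC lines or, for iPS cells and HSCs, over all 17 samples, and p-values were adjusted over all transcripts. Exact permutation tests were run in Python 3.11.15 with numpy 2.4.6. The limma fit of MASCs against SSCs and the exact permutation tests of level and spread were tried on simulated data. Confidence intervals and adjusted p-values come from the same fits.

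The 4 genes and the lists of other genes were chosen with earlier results of these data known. Named beside them were the 3 symbols most correlated with each gene, neighbours within 150 kb, and list members that were called or at the ends of a list's range. Lists of meiotic, testis somatic and blood genes served to check the labels. Alternatives were a pseudocount of 0.1, transcripts with at least 1 FPKM in at least 2 samples, quantile normalization, trended robust eBayes, a log2 difference of at least 1, blocks for line number and strain, a fit over all 17 samples, and each line left out. ChIP-seq data were not analysed here, and sequences of the 4 genes were not used here.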

Additional observations from a re-analysis of the deposited data

Results flagged for a closer look

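For Dppa4 and Dppa5a the difference between MASCs and SSCs was larger in 129mix than in Oct4-GFP lines, on the evidence of a single 129mix SSC line. In a limma fit with cell type by strain terms over the 12 SSC, MASC and ESC lines, chosen after seeing the data, the Dppa4 difference was 2.02 among Oct4-GFP lines and 3.88 among 129mix lines. The 129mix effect was larger by 1.85 (SE 0.17, limma adjusted p = 0.0355). For Dppa5a the differences were 5.15 and 8.71, and the 129mix effect was larger by 3.56 (SE 0.28, limma adjusted p = 0.0268). For Dppa2 and Dppa3 the same contrast was 1.24 (limma adjusted p = 0.457) and 1.5 (limma adjusted p = 0.861). Over all transcripts 0.744% passed this test at an adjusted p under 0.05. The 129mix side holds 1 SSC line, SSC.4, and the fit leaves 4 residual degrees of freedom, so strain and that single line cannot be told apart. SSC.4 had been seen to be low for both genes before this contrast was chosen, and the test adds no independent evidence. In FPKM, SSC.4 had 6.56 for Dppa4 and 5.36 for Dppa5a, the lowest of the 4 SSC lines for both.

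The summed level of the primordial germ cell genes, a list without the Dppa genes, was far higher in MASC.1 than in the other MASC lines, at 9.82 on the log2(FPKM + 1) scale (902 FPKM against 325 to 390 FPKM). Of 42 sets of SSC or MASC values examined in this way, this was the 1 to stand out, and chance alone gives about 1 in 20. Of this sum Ifitm3 alone made up 854 FPKM in MASC.1 and 281 to 330 FPKM in the other MASC lines. The other 8 genes summed to 48.3 FPKM in MASC.1, within the 44.0 to 59.4 FPKM of the other MASC lines. Ifitm3 was at 1087 FPKM in the MEF sample. MASC.1 also had the highest fibroblast sum, 882 FPKM, and the part of that in this result was not tested.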

How the results depend on the processing

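All 4 Dppa genes stayed called higher in MASCs than in SSCs under all 20 alternatives tried, with differences of 3.93 to 4.61 for Dppa2, 3.49 to 5.02 for Dppa3, 2.36 to 3.19 for Dppa4 and 5.84 to 7.05 for Dppa5a, and limma adjusted p up to 0.0302. In iPS cells against SSCs all 4 stayed called under 13 alternatives. Replicate numbers recur across cell types, and deviations of same-numbered lines had correlations from -0.225 to 0.185. Such correlations cannot decide whether a MASC line came from the same-numbered SSC line. SSC.3 and MASC.3 differ in strain label, C57Bl/6J against 129mix. With the replicate block the MASC minus SSC differences were 4.08, 3.54, 2.57 and 6.43 for Dppa2, Dppa3, Dppa4 and Dppa5a, ESC minus SSC for Dppa3 lost its call (3.26, limma adjusted p = 0.0964), and MASC minus iPS for Dppa2 turned to -0.22. With a strain block MASC minus iPS for Dppa3 was -2.22 in place of -1.24 (limma adjusted p = 0.185). The cause was not tested.

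Signs near 0 turned elsewhere. For MASC minus ESC, Dppa3 was -0.21 with a strain block, and leaving out single lines gave -0.42 to 0.18 for Dppa2, -0.80 to 1.09 for Dppa3 and -0.17 to 0.0081 for Dppa4, none called. The SD ratio of SSCs over MASCs ranged from 0.299 to 0.711 for Dppa2, 0.72 to 2.89 for Dppa3, 0.684 to 2.48 for the longer Dppa4 transcript and 0.878 to 4.17 for Dppa5a when single lines were left out. Without the Oct4-GFP lines, chosen after seeing the data, it was 0.327 for Dppa2, 0.819 for Dppa3, 22.6 for Dppa4 and 5.92 for Dppa5a. With a pseudocount of 0.1 it was 3.50 for Dppa3, and deviations from the mean gave an exact permutation p of 0.0619 for Dppa5a. The ratio of Dppa2 to Dppa3 was -0.42 with a pseudocount of 0.1 and -0.50 to 0.71 without single lines. Counts of all transcripts called higher in MASCs than in SSCs were 565, 1265 with a pseudocount of 0.1 and 1972 with a log2 difference of at least 1. Among SSC, MASC, ESC and iPS lines, the Dppa gene with the lowest coverage was Dppa3 in SSCs, at 0.165 reads per base in the lowest line.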
